A study of Mus musculus with 4 samples.

Results

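The promoters of 10 fibroblast matrix genes were followed in H3K4me3 HiChIP-seq of MLg cells, out of 21755 protein-coding genes annotated by GENCODE on chromosomes 1 to 19 and X of mm10. The genes, chosen by name, code for an adhesive glycoprotein (Fn1), proteins of the elastic fibre (Eln, Fbn1), crosslinking enzymes (Lox, Loxl2), matricellular proteins (Postn, Sparc, Tnc, Thbs1) and an inhibitor of matrix proteases (Timp3). Each was measured at the annotated 5′ end of its gene, called here the TSS. The mark was counted as pair ends within 2 kb of the TSS per 1000000 ends of the library (normalised ends), and the contacts as pairs 20 kb to 2 Mb apart with an end within 10 kb of the TSS per 1000000 such pairs (normalised contacts). Both were set against the median of all coding promoters in the same library. Loxl2 had no reads, as described with the crosslinkers, so 9 of the 10 promoters were measured.

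HiChIP ligates DNA ends that lie close together in the nucleus and then enriches, with an antibody, the ligated fragments that carry a histone mark, here H3K4me3, the mark of active promoters. MLg is a fibroblast line from mouse lung. All cells went through a transfection protocol with antagomiR probes at 60 nM and were harvested 24 h later, and there was 1 library for each of 4 conditions. Control cells are labelled WT and, by the study's methods, received a negative control probe. TGFB1 cells were given 5 ng/ml of recombinant human TGFB1 for the last 4 h, starting 20 h after transfection. miR-9-LOF cells (loss-of-function) received the probe against miR-9-5p without TGFB1, and TGFB1+miR-9-LOF cells received both. The comparisons address whether TGFB1 changed the mark and the contacts of these promoters, and whether blocking miR-9 altered that. With 1 library per condition every test below compares 2 libraries, not 2 conditions, and intervals cover counting error only.

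The probe is directed against this microRNA, shown as the mouse RefSeq sequence of Mir9-1 (GRCm38.p6) with its seed, bases 2 to 8, in capitals:
miR-9-5p: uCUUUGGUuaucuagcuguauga

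The extracellular matrix is built from fibres and the glycoproteins that tie them to cells. Fibronectin fibrils are laid down early and guide other proteins, elastin is deposited on fibrillin microfibrils, and lysyl oxidases join lysines of collagen and elastin into stable crosslinks. Matricellular proteins sit in the matrix but mainly modulate cell adhesion and growth factor signals. In lung fibrosis fibroblasts exposed to TGFB1 make more of many of these proteins.

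The libraries held 10864558 to 15568047 valid pairs, of which 4793354 to 6692306 were 20 kb to 2 Mb apart on 1 chromosome. They differed in how strongly the mark was enriched. The median promoter with an enriched region (a 1-kb stretch with at least 4 times the ends of its surroundings at a false discovery rate of 0.01, the libraries thinned to equal depth and pooled) had 13.3 normalised ends in Control and 9.76 in TGFB1, and with the miR-9 probe 6.20 after TGFB1 and 7.07 without it, whereas the median of all coding promoters lay between 2.83 and 3.35. Ratios between libraries are therefore given relative to the 500 coding promoters nearest in pooled count of the same measure. A change shared by promoters of similar level is not seen in these ratios. With 1 library per condition, such a change and a difference in enrichment between libraries cannot be told apart. For contacts the reference matches the number of contacts and not the mark. In contacts for miR-9-LOF over Control, the median log2 ratio was -0.24 over all tested promoters and -0.56 over those with an enriched region. Of the fibroblast markers checked, 5 of 10 had such a region within 2 kb of the TSS (Col1a1, Vim, Pdgfra, Pdgfrb and S100a4), and none of 6 epithelial, 3 endothelial and 4 immune markers had one. Col1a2, Thy1, Dcn, Lum and Tcf21 had none.

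By the mean of the 4 libraries at the gene's 5′ end, Thbs1 stood highest of the 9 promoters in both measures and Postn lowest. An enriched region lay within 2 kb of the TSS in 5 of the 10 genes (Fbn1, Lox, Tnc, Thbs1 and Timp3), beside 37.9% of all coding promoters. Loxl2, which had no reads, is counted here among the genes without such a region. Averaged over the 4 libraries, the ends within 2 kb were 5.33 times the median coding promoter at Thbs1, 2.77 at Lox, 2.53 at Fbn1, 2.10 at Timp3, 1.75 at Tnc, 1.57 at Sparc, 1.51 at Fn1, 1.32 at Eln and 0.739 at Postn. Contacts followed another order, with 3.29 times the median at Thbs1, 2.10 at Fbn1, 1.95 at Sparc, 1.94 at Timp3, 1.60 at Fn1, 1.18 at Lox, 1.18 at Eln, 1.10 at Tnc and 0.953 at Postn. Thbs1 ranked 397 among all coding promoters in contacts and 1164 in ends. Lox was thus among the most marked members and close to the median in contacts. Against the median of promoters with an enriched region, Thbs1 alone was higher in ends, at 1.80 times that median. Ends lie near sites of MboI, the restriction enzyme that cut the DNA. Within 2 kb of the TSS there were from 6 such sites at Fn1 and Timp3 to 16 at Thbs1, against a median of 9. Neither the levels nor the 500-bp peaks given below were adjusted for this.

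**Figure D1:**
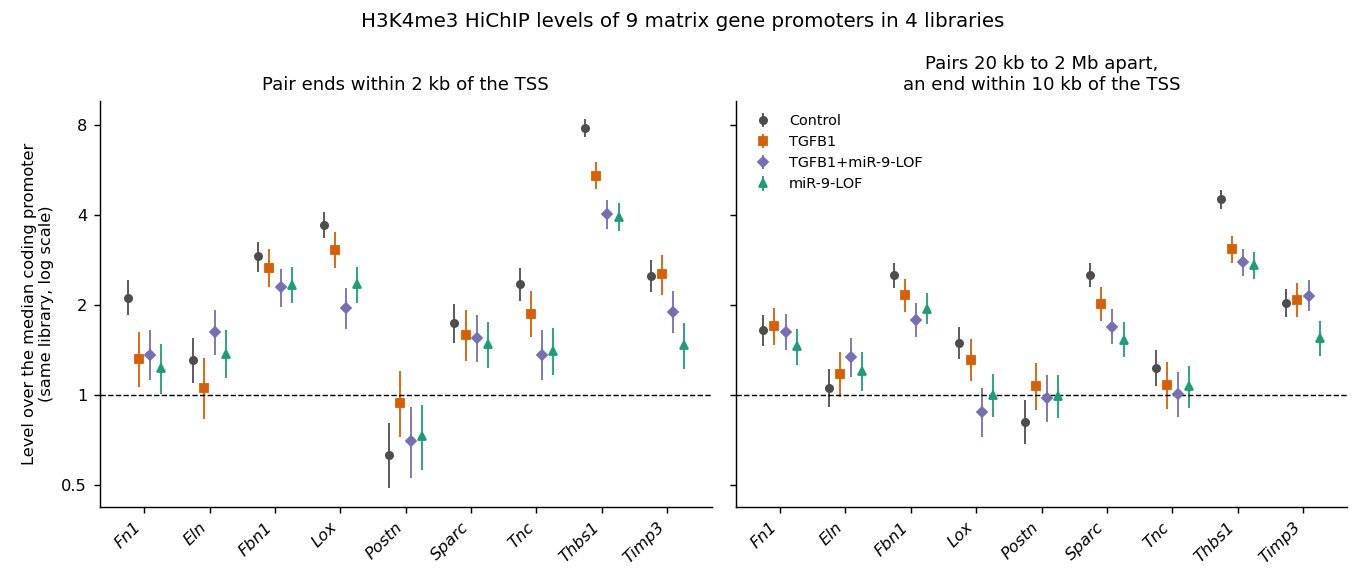
Level of 9 promoters in the 4 libraries over the median coding promoter of the same library, for pair ends (left) and contacts (right), on a log scale; bars are exact 95% Poisson intervals and the dashed line marks the median promoter. Thbs1 is highest in every library in both panels, and Postn lies below the line in ends in every library.

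Fn1 codes for fibronectin, which binds integrins on cells and collagen in the matrix. Its TSS lies at position 71653200 of chromosome 1 on the minus strand. In the order Control, TGFB1, TGFB1+miR-9-LOF, then miR-9-LOF alone, used from here on, Fn1 had 7.10, 4.14, 3.86 and 3.47 normalised ends within 2 kb, which is 2.12, 1.32, 1.36 and 1.23 times the median coding promoter. The Control value stood above the other three, whose intervals overlapped. No enriched region reached the TSS and the nearest was 95.2 kb away, although ends piled up on both sides of it. Averaged over the libraries, the highest 500-bp bin lay 2750 bp into the gene, at 7.62 times the median bin, with 73, 43, 41 and 53 ends. The bin 250 bp before the TSS had 109, 31, 40 and 27, and was the highest in Control. Normalised contacts were 42.0, 40.7, 35.5 and 31.6, 1.45 to 1.70 times the median. They were lopsided: only 20.7% of the 895 pooled contacts went downstream, into and past the gene, and only 0.478% of coding promoters had a lower share. The share was 18.9%, 21.0%, 21.3% and 22.1% in the 4 libraries, so every library showed it. Shares and distances of contacts, here and below, are set only against coding promoters above a minimum number of pooled contacts.

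Elastin, the rubber-like core of the elastic fibre, is encoded by Eln (TSS at position 134747323 of chromosome 5, minus strand). Eln had 4.39, 3.31, 4.60 and 3.89 normalised ends, 1.06 to 1.63 times the median promoter, and 27.0, 28.2, 29.2 and 26.1 normalised contacts. In ends it is among the lowest members, and the highest 500-bp bin within 10 kb of its TSS, averaged over the libraries, was 3.38 times the median bin. The nearest enriched region was 58.3 kb away.

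Fbn1 codes for fibrillin-1, the main protein of the microfibrils on which elastin is deposited, and it is the longest gene of the group at 207 kb (TSS at position 125507993 of chromosome 2, minus strand). At the gene's 5′ end it had 9.73, 8.33, 6.48 and 6.58 normalised ends. The mark was centred further in, with a peak 2750 bp into the gene of 18.6 times the median bin. A transcript start annotated 1921 bp downstream held the most ends, at 23.9, 18.2, 11.4 and 12.7 normalised ends. Measured from that start, with every other gene treated in the same way, Fbn1 was at 4.65 times the median promoter in place of 2.53, against 4.61 for Thbs1, which was then not the highest member in ends. A region enriched for H3K4me3, 2 kb wide, covered it. Another coding gene, Gm9913, starts within 10 kb of the Fbn1 TSS, so their contacts cannot be told apart. Normalised contacts were 64.3, 51.7, 39.0 and 42.2, and 37.3% of them stayed within the gene.

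The Fbn1 promoter is shown because its GC-rich stretch lies under this mark. It is a RefSeq sequence (GRCm38.p6, chr2:125506389-125506688, minus strand, 250 bases before to 50 after the start) in which capitals mark GGGCGG, the binding motif of SP1-type factors, at -185 and a G-quadruplex pattern, 4 runs of at least 3 G with gaps of 1 to 7 bases, at -144 from the start:
Fbn1 promoter: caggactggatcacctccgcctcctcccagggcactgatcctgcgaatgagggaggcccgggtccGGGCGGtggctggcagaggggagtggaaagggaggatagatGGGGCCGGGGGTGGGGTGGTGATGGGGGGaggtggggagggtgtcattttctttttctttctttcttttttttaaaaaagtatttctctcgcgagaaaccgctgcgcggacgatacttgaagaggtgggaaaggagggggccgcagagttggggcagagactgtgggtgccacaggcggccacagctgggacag
It holds 60.3% GC and 14 CpG, against a median of 52.7% and 7 over 32851 RefSeq promoters of this length. The pattern was searched on both strands because the study concerns G-quadruplexes, and 18.6% of all promoters hold one, while 35.7% hold GGGCGG.

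Lox codes for lysyl oxidase, a secreted enzyme that starts the crosslinks of collagen and elastin. Its TSS is at position 52529867 of chromosome 18, minus strand. An enriched region of 3 kb, the widest beside that of Sparc, covered the TSS, and the ends reached 22.3 times the median bin 1250 bp into the gene, the highest such ratio among the members. Lox had 12.4, 9.57, 5.52 and 6.62 normalised ends, 3.71, 3.06, 1.95 and 2.34 times the median promoter. It had 38.3, 31.5, 19.2 and 21.7 normalised contacts, 1.50, 1.31, 0.877 and 1.00 times the median. Both libraries with the miR-9 probe thus lay below both without it in ends and in contacts, as did the median marked promoter.

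Loxl2, another lysyl oxidase, could not be measured. The 4 libraries held 0 ends and 0 contacts at its TSS (position 69609068 of chromosome 14), where 3 ends, the limit that a count of 0 allows, would be 0.0963 to 0.138 normalised ends. Of 99 stretches of 50 bases around the TSS, 98 occur again on chromosome 14, at a median position of 69390733. The count of 0 therefore says nothing about the mark at Loxl2.

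Postn codes for periostin, a matricellular protein of collagen-rich tissue. It had 2.12, 2.95, 1.98 and 2.06 normalised ends, 0.631, 0.941, 0.700 and 0.727 times the median, the lowest of the group, and the nearest enriched region was 330.9 kb from its TSS (position 54361109 of chromosome 3, plus strand). Normalised contacts were 20.8, 25.7, 21.3 and 21.5, near the median. Unlike Fn1, Postn contacted mainly sequences downstream of its TSS, with 77.0% of 531 pooled contacts, a share above that of 98.8% of coding promoters, and 74.1%, 77.2%, 81.9% and 75.4% in the libraries.

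The Postn promoter is shown as the unmarked case. The RefSeq window at its TSS (chr3:54360857-54361156, plus strand) has 5 CpG and holds TATAAA, the TATA box, at -26, in capitals, a motif present in 13.6% of promoters:
Postn promoter: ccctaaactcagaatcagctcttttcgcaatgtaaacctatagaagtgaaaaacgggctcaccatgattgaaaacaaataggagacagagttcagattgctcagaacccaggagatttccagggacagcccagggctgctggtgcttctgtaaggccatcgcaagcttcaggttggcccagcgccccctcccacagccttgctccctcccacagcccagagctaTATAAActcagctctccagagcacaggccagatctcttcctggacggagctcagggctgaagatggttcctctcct

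Sparc codes for osteonectin, a collagen-binding glycoprotein. At the annotated 5′ end of the gene (position 55423183 of chromosome 11, minus strand) it had 5.83, 4.97, 4.39 and 4.18 normalised ends and no enriched region. Most of its mark lay inside the gene: a transcript start 3283 bp downstream was covered by an enriched region of 3 kb and had 20.3, 15.1, 8.14 and 8.90 normalised ends. From that start Sparc was at 3.69 times the median promoter in place of 1.57. Normalised contacts were 64.4, 48.4, 37.0 and 33.2. With the libraries pooled their median distance was 72.8 kb, and 1.48% of coding promoters had a shorter one, their median being 159 kb. The libraries differed in this, with medians of 53.7, 55.0, 115.3 and 103.5 kb, so they were shorter in both libraries without the miR-9 probe. Medians were also shorter in both libraries without the probe at Thbs1, by little (226.1 and 209.9 against 232.3 and 235.8 kb), Lox (108.7, 114.3, 138.6 and 143.7 kb) and Fbn1 (121.5, 112.2, 143.8 and 144.2 kb). This was not so at Fn1, Eln, Postn, Tnc and Timp3. The median coding promoter moved the same way within a narrow range (155.5, 157.0, 158.7 and 161.8 kb). These differences were not tested, and the share of all coding promoters with this order was not counted.

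The RefSeq start of Sparc (position 55420080) lies beside the marked one (position 55419900), and its promoter (chr11:55420031-55420330, minus strand) is shown for that reason. It has only 4 CpG, and the capitals mark the complement of CAGACA, the motif of SMAD-type factors, at -36 and 15 from the start, a motif found in 21.0% of promoters:
Sparc promoter: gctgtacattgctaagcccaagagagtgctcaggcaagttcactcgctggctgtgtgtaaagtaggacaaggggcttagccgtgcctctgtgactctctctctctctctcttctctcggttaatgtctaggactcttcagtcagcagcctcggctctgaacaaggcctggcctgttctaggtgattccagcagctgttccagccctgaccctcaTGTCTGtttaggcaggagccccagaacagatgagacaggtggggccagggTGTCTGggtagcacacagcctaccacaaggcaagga

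Tnc codes for tenascin-C, a matricellular protein of embryonic and injured tissue. An enriched region of 1 kb lay at its TSS (position 64047015 of chromosome 4, minus strand), with a peak of 8.36 times the median bin 250 bp into the gene. Tnc had 7.88, 5.84, 3.86 and 3.95 normalised ends, and 31.5, 25.9, 22.0 and 23.2 normalised contacts, at most 1.23 times the median promoter. Both values were highest in Control, as at the median marked promoter.

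Tnc has a RefSeq start at its TSS and another at position 64046936. The window of the latter, not printed, holds TATATAAG shortly before that start, which the search for TATAAA does not match. In the Tnc promoter at the TSS (chr4:64046966-64047265, minus strand), shown as a marked promoter beside the unmarked one of Postn, capitals mark GGGCGG at -167, TATAAA at -126, farther from this start than a TATA box usually lies, and the complement of CAGACA at 9:
Tnc promoter: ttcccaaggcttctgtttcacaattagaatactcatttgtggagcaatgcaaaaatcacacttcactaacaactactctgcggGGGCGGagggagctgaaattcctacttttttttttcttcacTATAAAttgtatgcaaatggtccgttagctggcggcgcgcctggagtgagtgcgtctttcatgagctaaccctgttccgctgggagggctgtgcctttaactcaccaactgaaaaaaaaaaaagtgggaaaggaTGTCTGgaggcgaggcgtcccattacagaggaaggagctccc

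Thbs1 codes for thrombospondin-1, a matricellular protein that can release TGFB1 from its latent complex. With its TSS at position 118111876 of chromosome 2, plus strand, Thbs1 had 26.1, 16.9, 11.4 and 11.1 normalised ends, 7.79, 5.41, 4.02 and 3.94 times the median, more than 92.5% to 95.7% of coding promoters. It had 115.2, 73.6, 60.7 and 58.9 normalised contacts, 4.51, 3.07, 2.78 and 2.71 times the median. Control was highest and TGFB1 next in both measures, as at the median marked promoter, and the intervals of the libraries with the miR-9 probe overlapped. Only 18.8% of its 1873 pooled contacts went downstream, a share undercut by 0.268% of coding promoters, and it lay between 14.4% and 20.6% in each library.

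Timp3 codes for a matrix-bound inhibitor of metalloproteinases and lies within the gene Syn3 (TSS at position 86300372 of chromosome 10, plus strand). It had 8.40, 7.92, 5.38 and 4.14 normalised ends and 51.9, 49.9, 46.9 and 33.5 normalised contacts. An enriched region of 1 kb lay at the TSS, with 12.5 times the median bin 250 bp into the gene. In contacts the miR-9-LOF library was lowest, at 1.55 times the median against 2.03 to 2.15 in the others.

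The Timp3 promoter (chr10:86300162-86300461, plus strand) is shown as the richest in CpG of the members matched, with 67.0% GC and 24 CpG. Capitals mark a G-quadruplex pattern on the printed strand at -143 and one on the other strand at -12, which overlaps the complement of GGGCGG at -15 and at 14:
Timp3 promoter: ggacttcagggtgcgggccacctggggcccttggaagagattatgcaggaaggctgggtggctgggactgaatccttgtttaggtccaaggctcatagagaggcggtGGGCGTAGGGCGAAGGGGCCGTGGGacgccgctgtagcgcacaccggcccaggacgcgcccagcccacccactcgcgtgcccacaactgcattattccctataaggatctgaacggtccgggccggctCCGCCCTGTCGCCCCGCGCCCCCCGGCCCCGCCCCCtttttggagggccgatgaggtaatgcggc
RefSeq promoters of Fbn1, Postn, Sparc, Tnc and Timp3 were matched, 5 of the 10 genes. None of their windows held TGANTCA, the AP-1 motif, or ACCAAAG, the complement of the miR-9 seed, which are in 7.81% and 4.23% of promoters.

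**Figure D2:**
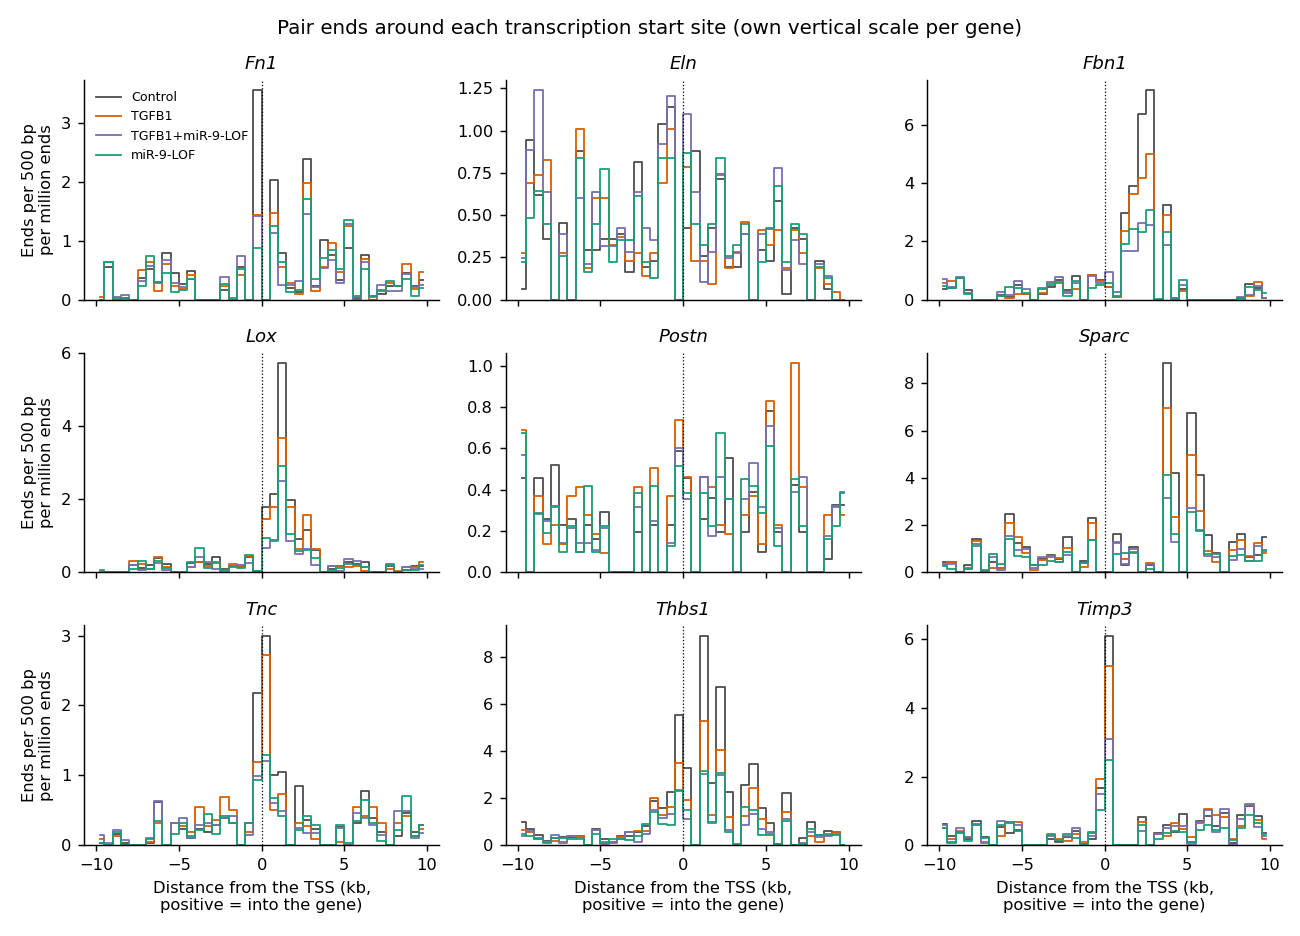
Pair ends per 1000000 ends of the library, in 500-bp bins from 10 kb before to 10 kb after each TSS, 1 line per library; each gene has its own vertical scale. Fbn1, Lox, Sparc and Thbs1 have their highest bins inside the gene, Tnc and Timp3 in the bin next to the TSS, and Eln and Postn have no clear peak.

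With the main settings no promoter of the group was called different in the mark between libraries, relative to promoters of similar level. Other references and a window of 5 kb called some members, as given in the closing section with the numbers over all promoters. The test was a two-sided exact binomial test of the counts in 2 libraries against the ratio of promoters of similar level, with Benjamini-Hochberg adjustment over 20898 promoters and calls at an adjusted p of at most 0.05. Of the 9 promoters 0 were called for TGFB1 over Control, where 0.861% of all promoters were, 0 when the probe was added to TGFB1 (0.565% of all for TGFB1+miR-9-LOF over TGFB1), 0 for miR-9-LOF over Control (8.62%), 0 for TGFB1+miR-9-LOF over miR-9-LOF (0.44%) and 0 for the difference between the TGFB1 effects with and without the probe (0.158%). Closest was Eln, with 130 ends in TGFB1+miR-9-LOF against 72 in TGFB1, a relative log2 difference of 0.75 (95% interval 0.33 to 1.19) and an adjusted p of 0.0584 by the exact test. Unadjusted p-values under 0.05 were found for 2, 2, 3 and 2 of the 9 promoters in the 4 comparisons. The share of all promoters under that cut was not counted, so these numbers cannot be set against a background. Fn1 had 90 ends in TGFB1 and 218 in Control, a relative log2 difference of -0.48 (interval -0.85 to -0.11, adjusted p 0.197 by the exact test). The median relative log2 difference of the 9 promoters lay between -0.04 and 0.19 in these comparisons. The interval for Postn in TGFB1 over Control ran from -0.09 to 0.95, so the counts allow any change within it. In cells measured in bulk, a change in the share of cells that carry the mark and one in its amount per cell cannot be told apart.

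In contacts, 3 of the 9 promoters were lower in miR-9-LOF than in Control, where 9.36% of 21046 promoters were called and 5.07% were called lower. Lox had 143 contacts against 256, a relative log2 difference of -0.50 (interval -0.81 to -0.20, adjusted p 0.0166 by the exact test). Sparc had 219 against 431, a difference of -0.42 (-0.66 to -0.18, adjusted p 0.0117 by the exact test), and Thbs1 388 against 771, a difference of -0.27 (-0.45 to -0.09, adjusted p 0.0363 by the exact test). Timp3 was higher in TGFB1+miR-9-LOF than in miR-9-LOF, with 279 contacts against 221, a difference of 0.54 (0.28 to 0.81, adjusted p 0.0365 by the exact test), in a comparison in which 0.095% of all promoters were called and 0.0523% called higher. For TGFB1 over Control 0 of 9 were called (0.565% of all), and 0 of 9 in TGFB1+miR-9-LOF over TGFB1 (0.124%), with unadjusted p-values under 0.05 for Thbs1 at -0.28 and for Lox at -0.55 respectively. How many of all promoters had such unadjusted values in contacts was not counted either. The difference between the TGFB1 effects was called at 0 of 9 and at 0% of all promoters. It was largest at Thbs1, with 0.47 (0.20 to 0.75, unadjusted p 0.000735 by a normal approximation, adjusted p 0.317). The comparisons share libraries, so their values are not independent.

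These 4 calls were not made under every window and filter, while the differences kept their direction. With an end within 5 kb of the TSS none was called, the differences being -0.27 for Lox, -0.16 for Sparc, -0.20 for Thbs1 and 0.78 for Timp3. With pairs whose ends both had a mapping quality of 30 or more, Sparc alone was called, at -0.51, while Lox had -0.44, Thbs1 -0.27 and Timp3 0.65 (adjusted p 0.0528, 0.0509 and 0.0714 by the exact test). With pairs of 50 kb to 2 Mb none was called, at -0.51 for Lox, -0.26 for Sparc, -0.24 for Thbs1 and 0.58 for Timp3, on fewer contacts. Sparc was also not called with a window of 25 kb (-0.20, adjusted p 0.0806 by the exact test), Thbs1 with pairs of 20 kb to 500 kb (-0.27, adjusted p 0.0812 by the exact test), and Lox relative to the median of promoters with an enriched region (-0.26, adjusted p 0.151 by the exact test). The share of pairs with that quality was 86.6% in miR-9-LOF and 90.4% to 90.8% in the others, and the part of this in the calls was not tested beyond that filter. Measured from the marked transcript start, Sparc had a difference of -0.29 that was not called (adjusted p 0.0881 by the exact test). Relative to promoters of similar level and GC content, an alternative chosen after seeing the data, Lox had -0.41 and was not called (adjusted p 0.0695 by the exact test).

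**Figure D3:**
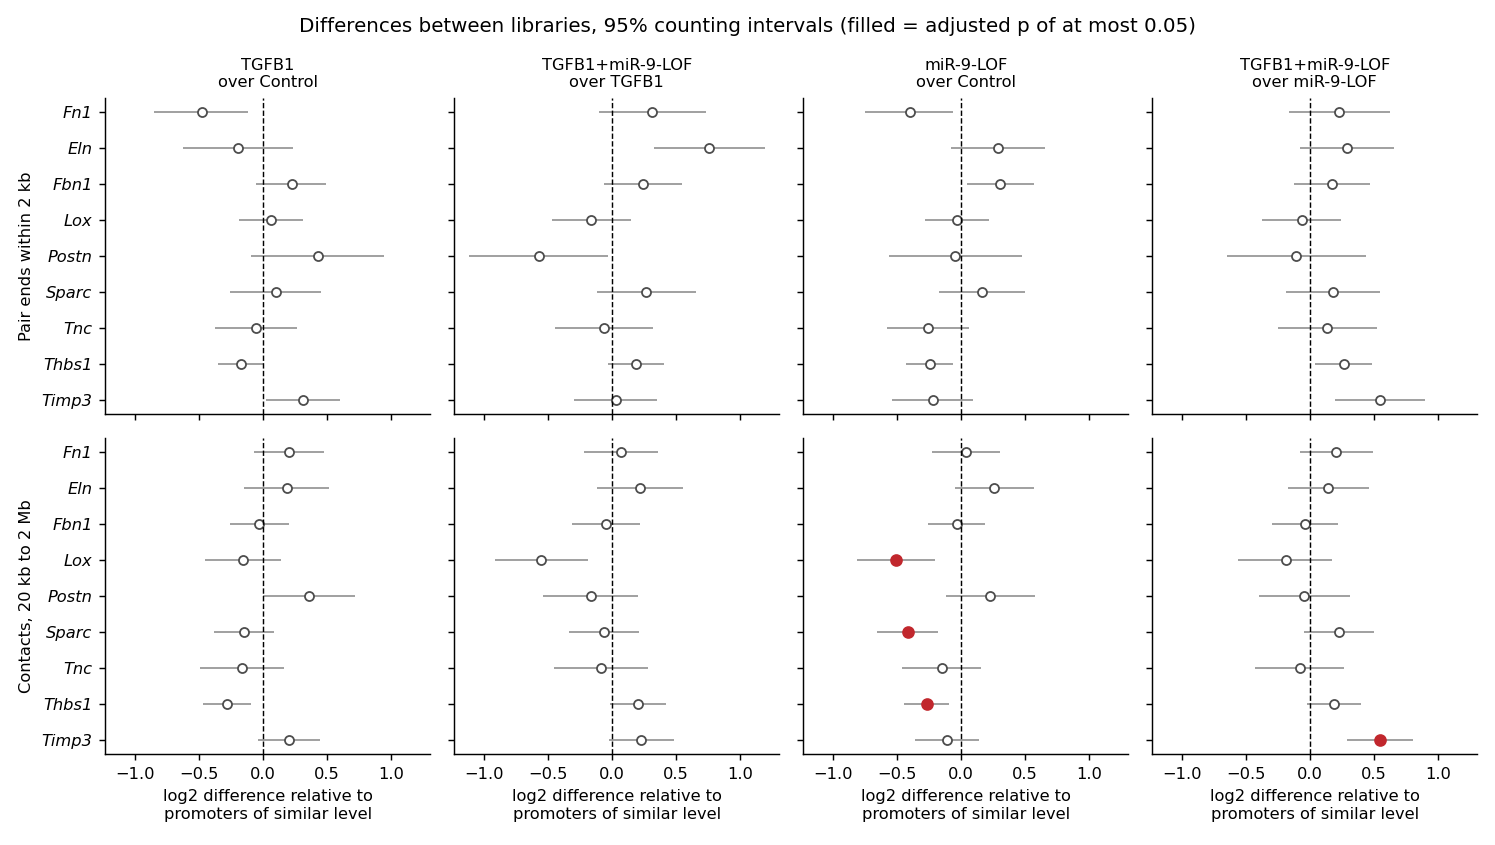
Log2 difference between 2 libraries relative to promoters of similar pooled level, for pair ends (top) and contacts (bottom) in 4 comparisons; bars are 95% Clopper-Pearson intervals and filled points are called at an adjusted p of at most 0.05. Filled points are Lox, Sparc and Thbs1 in the contacts of miR-9-LOF over Control and Timp3 in those of TGFB1+miR-9-LOF over miR-9-LOF.

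Among 55 other matrix genes, 26 had an enriched region at the TSS (47.3%, beside 37.9% of all coding promoters). The share was 6 of 7 for crosslinkers, which include the lysyl hydroxylases Plod1, Plod2 and Plod3, 4 of 5 for inhibitors, 6 of 8 for receptors, 5 of 13 for matricellular genes and 5 of 22 for glycoproteins and elastic fibre genes. In contacts the highest were Ltbp3, which binds latent TGFB, at 4.55 times the median promoter, the microfibril gene Mfap4 at 3.26 and the fibulin Fbln2 at 3.10. In ends, 2 of the 55 were called lower for TGFB1 over Control, where 0.421% of all promoters were, the basement membrane gene Nid2 (113 against 318 ends, relative log2 difference -0.59) and Ccn2, a known TGFB1 target that codes for CTGF (307 against 776, -0.38). For miR-9-LOF over Control, where 3.84% of all promoters were called higher and 4.78% lower in ends, 3 were called higher, Emilin1 and Sparcl1 and the integrin Itgb3 (0.43, 0.50 and 0.58), and 5 lower, Fbln5, Plod1, Plod2, Ccn2 and the integrin Itgb5 (-0.87, -0.62, -0.57, -0.44 and -0.39). In contacts of that pair 5 were called lower, beside 5.07% of all promoters, Nid2, Ccn1, Ccn2, Itgb1 and Cd47 (-0.85, -0.36, -0.34, -0.55 and -0.80). The median over the 55 genes lay between -0.04 and 0.06 in both measures, and in the other comparisons 0 were called.

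The strongest partners of each promoter were sought among 10-kb bins 30 kb to 1.99 Mb away, with the 4 libraries pooled. The pairs joining a promoter to a bin were compared with an expectation built from their distance and the coverage of that bin, and were called by a Poisson upper tail with Benjamini-Hochberg adjustment over 8096373 promoter-bin pairs and at least 5 pairs. Domains were not modelled. The expectation was scaled to all pairs of a promoter on both sides, so a lack of pairs on a side raises the ratios on the opposite side. All 9 promoters had a called bin, as had 54.2% of all coding promoters, and 53 of their bins were called, beside 0.415% of all bins tested. The median coding promoter had 1 called bin and the median marked one 2.

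Thbs1 had 24 called bins, more than 99.9% of coding promoters, and all 24 lay upstream, 147 to 657 kb from its TSS. They held 682 pairs in a 520-kb span of chromosome 2 (chr2:117450001-117970000) with no coding gene and no enriched region, in which the annotation has the noncoding genes 4930412B13Rik, Gm13986, Gm28183 and Gm13985. The bins with the most pairs were those at 147 and 157 kb, with 60 each against 24.1 and 27.8 expected, and the bin at 227 kb, with 48 against 16.9 (adjusted p 9.42e-07). The farthest bin, at 657 kb, had 20 pairs against 3.09 expected, 6.47 times (adjusted p 3.19e-07). A bin with a small expected number needs a higher ratio to be called, so ratios of near and far called bins are not compared. Summed over the 24 bins, pairs were 2.92 times the expected number in Control (95% interval 2.60 to 3.28) and 2.92 in TGFB1 (2.45 to 3.45). With the miR-9 probe the ratio was 2.78 after TGFB1 (2.32 to 3.31) and 2.71 without it (2.26 to 3.21). The intervals overlap, and 23 or 24 of the bins exceeded expectation in each library. The bins were chosen from the same pairs, so these ratios are a description. Without the Control library 10 bins were called, all upstream between the same limits. More pairs allow more bins to be called, and Thbs1 had 3.29 times the median contacts. Within 800 kb it had 1427 pairs upstream against 776 expected, and 288 downstream against 777. The upstream ratios include this imbalance, and promoters with as many contacts were not set beside Thbs1.

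Fn1 had 7 called bins, all upstream as well, 91.8 to 491.8 kb from the TSS and without a coding gene or enriched region. The largest were at 91.8 kb with 28 pairs against 12.3 expected, at 261.8 kb with 26 against 6.80 and at 371.8 kb with 24 against 4.74, 5.06 times (adjusted p 6.19e-07). The bins at 261.8 and 371.8 kb overlap the long noncoding RNA genes Gm28818 and 4930556G22Rik. Pairs were 3.66, 2.81, 3.29 and 4.52 times the expected number over the 7 bins in the 4 libraries, with overlapping intervals.

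Timp3 had 6 called bins, all overlapping the surrounding Syn3 gene, a synapsin gene. The bins at 145 and 155 kb downstream held 35 and 51 pairs against 14.2 and 17.8 expected, and 4 adjoining bins at 215 to 245 kb upstream held 115 against 34.7. The farthest bin of that upstream run also overlaps the gene Fbxo7. Pairs were 2.79 to 3.25 times the expected number in each library.

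Postn had 4 adjoining called bins, 304 to 334 kb downstream, with 73 pairs against 14.7 expected. The farthest of these, with 26 pairs against 4.80 (adjusted p 3.75e-08), holds the TSS of Supt20, a subunit of the SAGA coactivator complex, and the enriched region there is the nearest to Postn. In Control the ratio over the 4 bins was 3.37 (1.84 to 5.65) and in the other libraries 4.98 to 6.09, with overlapping intervals.

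Fbn1 had 5 called bins. The nearest, 87.0 kb upstream with 40 pairs against 20.1 expected, overlaps Cep152, a centriole gene. Another 2 lay in the 3′ part of Fbn1 itself, 173 and 203 kb from the TSS with 35 and 27 pairs against 11.7 and 8.27 expected, and 2 lay past its end, at 243 and 253 kb, the latter overlapping the dUTPase gene Dut. Sparc had 2, the bin 41.8 kb upstream with the TSS of Atox1 and G3bp1 and an enriched region (73 pairs against 43.4) and the bin 218 kb downstream with the TSS of the amino acid transporter gene Slc36a1 (24 against 5.24, adjusted p 3.33e-06). Lox had 2 adjoining bins 105 and 115 kb upstream, over Zfp474 and 1700034E13Rik, with 63 pairs against 23.0. Eln had 2 adjoining bins 118 and 128 kb upstream with 38 pairs, 3.18 times the number expected, and Tnc had 1 bin 278 kb upstream with 13 against 3.54, neither with a coding gene.

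Leaving out a library, an alternative chosen after seeing the data, changed these counts. Without Control, Eln, Lox and Tnc had 0 called bins, Fn1 had 4, Fbn1 2 and Sparc 1. Without TGFB1 or without TGFB1+miR-9-LOF the single bin of Tnc was not called, Eln had 1, and Sparc had 1 without TGFB1. Without TGFB1+miR-9-LOF Fn1 had 4 and Fbn1 3, and without miR-9-LOF they had 2 each and Eln 1.

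Of the 53 called bins 4 held a coding TSS and 2 an enriched region, beside 27.8% and 20.1% of all called bins. Over all coding promoters, 33624 called bins were compared between libraries by an exact binomial test against the ratio of their expected numbers. That ratio follows the pairs of the promoter in each library, so a change in its total contacts is not seen. In each of the 4 comparisons 0 bins were called. Unadjusted p-values under 0.05 were found for 599, 461, 602 and 521 of the 33624. The bin of Tnc had 2 pairs in TGFB1 and 7 in Control. Bins with so few pairs could not pass this adjustment on their own, whatever their split. The lack of calls therefore does not show whether partners of the 9 promoters differ between libraries.

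**Figure D4:**
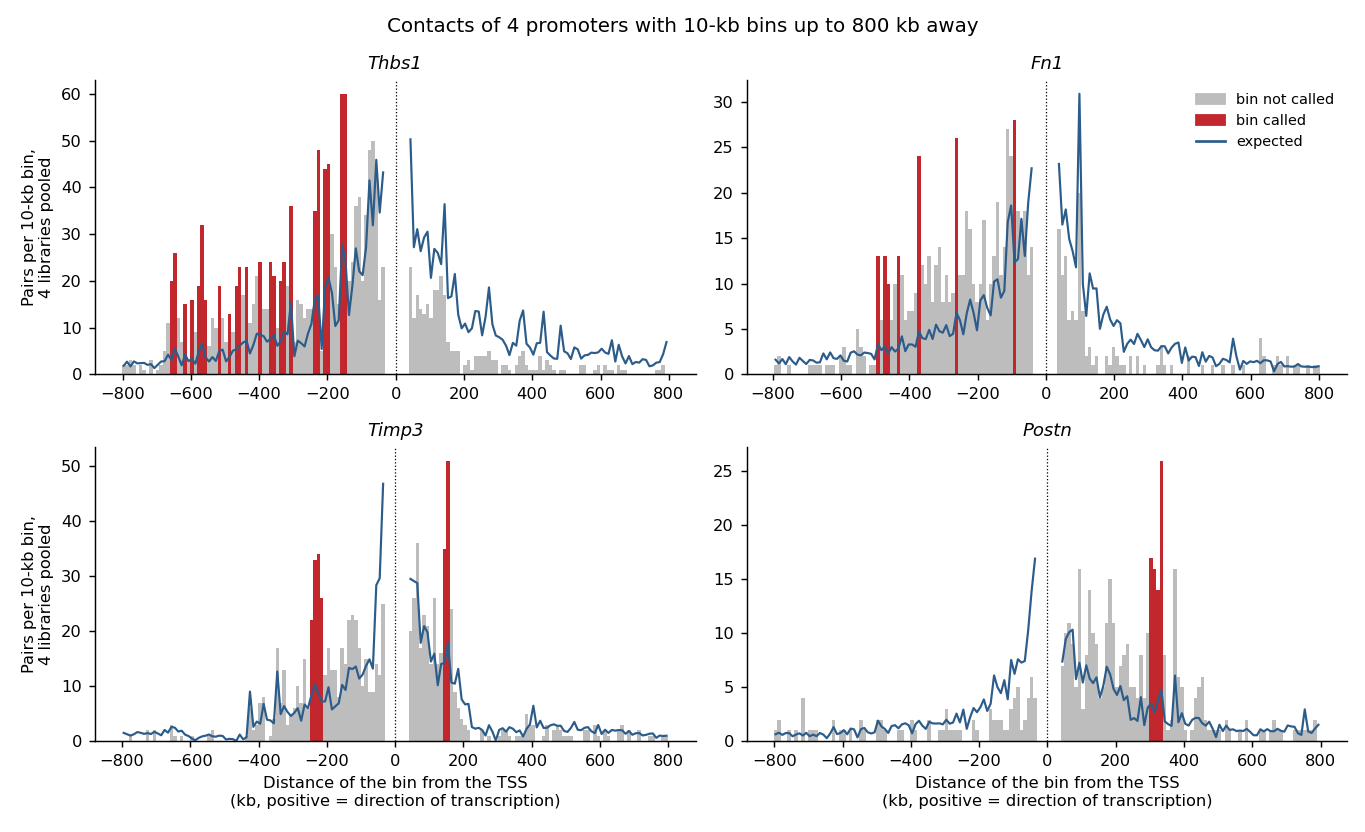
Pairs joining the TSS of Thbs1, Fn1, Timp3 and Postn to 10-kb bins within 800 kb, 4 libraries pooled; red bars are called bins and the line is the expected number. Summed over the bins shown, Thbs1 had 1427 pairs against 776 expected upstream and 288 against 777 downstream, Fn1 627 against 384.5 and 139 against 329, and Postn 84 against 189 and 368 against 218. Timp3 was less lopsided, with 522 against 441.5 upstream and 408 against 407.5 downstream. Single bins lie on either side of the line.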

How the data were processed

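There were 4 H3K4me3 HiChIP libraries from MLg cells, with 1 for each condition. The authors aligned reads to mm10 with HiC-Pro at default settings, removed duplicates and deposited 1 line per valid pair: positions, strands, MboI fragments and the mapping quality score of each end. Here the lines were counted, and that deposited score served only as a filter. Of the ends checked, 99.99% matched the MboI sites of GRCm38 to within 1 fragment. Promoters were the 5′ ends of GENCODE coding genes. Promoters with at least 20 pooled counts were tested. Log ratios used a pseudocount of 0.5 and intervals a level of 95%. PCR duplicates were removed by the authors, and intervals cover counting error only. The tests were checked on simulated counts for TGFB1 over Control, where 78% of promoters with a 2-fold increase in ends and 86% with one in contacts were called, as were 70% and 78% of those with a fold of 0.5. Analyses used Python 3.11.15, numpy 2.4.6, pandas 2.3.3, scipy 1.17.1 and matplotlib 3.10.9.

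The members and gene lists were chosen with earlier results of these data known. All 10 members are named throughout, other matrix genes where they were called in a comparison or were among the 3 highest in contacts, and up to 3 partner bins with the most pairs for each member. The runs of adjoining bins, noncoding genes and distances of Thbs1 and Fbn1 bins beyond these 3 were added after their values were seen. Windows, mapping quality, repeated fragment pairs, transcript starts, reference promoters, distances and bin sizes were varied.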

Additional observations from a re-analysis of the deposited data

How the results depend on the processing

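No paired analysis was possible because each condition had 1 library. Of 900 log2 differences recomputed under the alternatives, 851 kept their side of the threshold, 32 passed it only there, 16 no longer passed and 1 passed with the other sign, Postn in ends for miR-9-LOF over Control, at 0.87 against -0.04. In all, 74 of the 900 had the other sign than the value reported, and the rest of these passed neither way. That value was relative to the median of promoters with an enriched region, a reference that ignores level, and the number of members called moved with the reference. Relative to all coding promoters, ends gave 2 members for TGFB1 over Control, 5 for miR-9-LOF over Control and 2 when TGFB1+miR-9-LOF was set against TGFB1, where 10.8%, 49.3% and 23.4% of all promoters were called, and contacts gave 1, 5 and 1 (4.69%, 37.7% and 6.98%), with 1 for the difference of the TGFB1 effects (0.147%). Relative to promoters with a region, ends gave 1, 5 and 3 (7.33%, 52.1% and 24.3%). Contacts gave 2 for TGFB1 over Control (5.12%) and 4 for miR-9-LOF over Control (45.7%). For TGFB1+miR-9-LOF over miR-9-LOF, contacts gave 1 member relative to all coding promoters (0.157%) and 1 relative to promoters with a region (0.209%). With windows of 5 kb, ends gave 1, 2 and 1 members, beside 847, 3977 and 661 promoters in all, and contacts 0 in both comparisons with calls, miR-9-LOF over Control (896 promoters in all) and TGFB1+miR-9-LOF over miR-9-LOF (5). In the same order, pairs of 50 kb to 2 Mb gave 0 and 0 (1243 and 6 in all), and mapping quality of at least 30 gave 1 and 0 (2247 and 8). Similar level and GC content, chosen after seeing the data, gave 1 in ends for miR-9-LOF over Control (8.26%) and 2 in contacts (7.93%). It gave 1 in contacts for TGFB1+miR-9-LOF over miR-9-LOF (0.076%). The cause was not tested. Above the median of promoters with a region were 1 member in ends and 5 in contacts, against 8 and 8 above the median coding promoter.

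Called partner bins of the members fell from 53 to 33 with bins of 5 kb and to 25 without the Control library. Leaving out a library was chosen after seeing the data. The called bins of Thbs1 stayed upstream under each of 10 alternatives, 10 to 24 in number. Depth limits the comparisons: a 1.5-fold increase was called in 56% of simulated promoters in ends and 50% in contacts for TGFB1 over Control.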
